A study of Mus musculus with 6 samples.

Results

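The genes described are the oxygen-sensing machinery of the hypoxia-inducible factor (HIF). They comprise the HIF subunits Hif1a, Epas1 and Arnt, the prolyl hydroxylases Egln1, Egln2 and Egln3, and the asparaginyl hydroxylase Hif1an. The ubiquitin ligase subunit Vhl and the SIAH ubiquitin ligases Siah1a and Siah2 complete the set. The 10 genes were chosen by name, and every probe set annotated to 1 of them was taken, the one with the highest mean signal first. The annotation named 9 of the 10 genes, with 18 probe sets, out of 12393 genes named on the array. A filter on dim probe sets left 8 of the genes, with 14 probe sets, among 7746 genes. Hif1an had no named probe set and Epas1 did not pass.

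B16 cells, a line derived from a mouse melanoma, were profiled on 6 Affymetrix arrays, and no group had a replicate, as each was 1 array. The groups were chronic hypoxia (3 h at under 1% oxygen) and cyclic hypoxia (3 hypoxic periods of 1 h, with 30 min of reoxygenation between them), each collected at the end or after 1 h of reoxygenation, and normoxia for 3 h or with 1 h more. With its pauses, the cyclic exposure ran longer than the 3 h of normoxia and of chronic hypoxia. Cyclic arrays and the normoxia array of the same collection were therefore not matched in total time. All cells, the normoxia cultures included, were grown with serum and moved to serum-free medium 2 h before the exposure. A single cell line was used.

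In oxygen, the EGLN enzymes hydroxylate prolines of HIF alpha subunits, using oxygen and 2-oxoglutarate, and the Vhl protein then binds the modified subunit and sends it for degradation. Hif1an hydroxylates an asparagine and so keeps HIF from its coactivators. When oxygen is low these reactions slow, the alpha subunit accumulates, pairs with Arnt and activates genes that include Egln1 and Egln3, while SIAH ligases can mark Egln2 and Egln3 for degradation. Much of this control acts on protein, which arrays do not measure.

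HIF is known to bind a short core in DNA, ACGTG or GCGTG. Promoter windows from RefSeq (build GRCm38.p6), 250 bases before to 50 after the annotated start, were found for 8 of the 10 genes. Those of Egln1 and Hif1a are shown because these were the 2 genes whose brightest probe set averaged 100 units or more. Capitals mark either core on either strand. The Egln1 window is chr8:124949205-124949504, minus strand, and the Hif1a window is chr12:73907617-73907916, plus strand. The annotated Hif1a gene begins upstream, at base 73901324, so its window lies inside the gene and not at the gene's first base.
Egln1: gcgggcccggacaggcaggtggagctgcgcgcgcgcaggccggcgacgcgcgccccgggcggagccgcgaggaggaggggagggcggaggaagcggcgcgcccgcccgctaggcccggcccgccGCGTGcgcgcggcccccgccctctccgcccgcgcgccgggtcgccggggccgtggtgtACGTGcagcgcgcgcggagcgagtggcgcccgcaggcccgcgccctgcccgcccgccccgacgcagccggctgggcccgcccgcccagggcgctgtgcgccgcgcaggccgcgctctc
Hif1a: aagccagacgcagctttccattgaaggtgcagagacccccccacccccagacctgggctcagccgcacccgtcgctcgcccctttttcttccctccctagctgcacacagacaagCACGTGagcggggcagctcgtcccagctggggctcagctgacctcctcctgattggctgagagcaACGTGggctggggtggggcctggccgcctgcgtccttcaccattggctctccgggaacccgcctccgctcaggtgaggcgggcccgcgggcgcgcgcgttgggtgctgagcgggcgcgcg

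The Egln1 window held ACGTG from base -68 to -64 and GCGTG from -126 to -122, counted from the annotated start. The Hif1a window held ACGTG 3 times, of which 2 are the opposite strands of the palindrome CACGTG. Over all 32851 windows, 19.6% held ACGTG, 32.4% held GCGTG and 43.8% held at least 1 of the cores. The matches are letters in a window and describe no binding.

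Melanocyte markers were bright, as the labelled line requires. The summed signal of the 6 named markers of 7 (Tyr, Tyrp1, Dct, Pmel, Sox10 and Mitf, with Mlana unnamed) lay between 17658 and 23299 units. The summed signals of the fibroblast, immune, endothelial and keratinocyte lists lay between 2.64 and 60.1 units. Of the named markers, 0 of 5 fibroblast and 0 of 4 endothelial genes passed the filter, against 2 of 4 immune and 1 of 4 keratinocyte genes. One array stood apart, that of cyclic hypoxia followed by reoxygenation, whose log2 signals had a mean Pearson correlation across genes of 0.940 with the other arrays, against 0.962 to 0.966 for the rest. Signals were raised to a floor of 2.10 units, the 20th percentile, before log2 differences were taken. Since single arrays give a difference without an error, each is read beside the same difference over all genes.

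**Figure D1:**
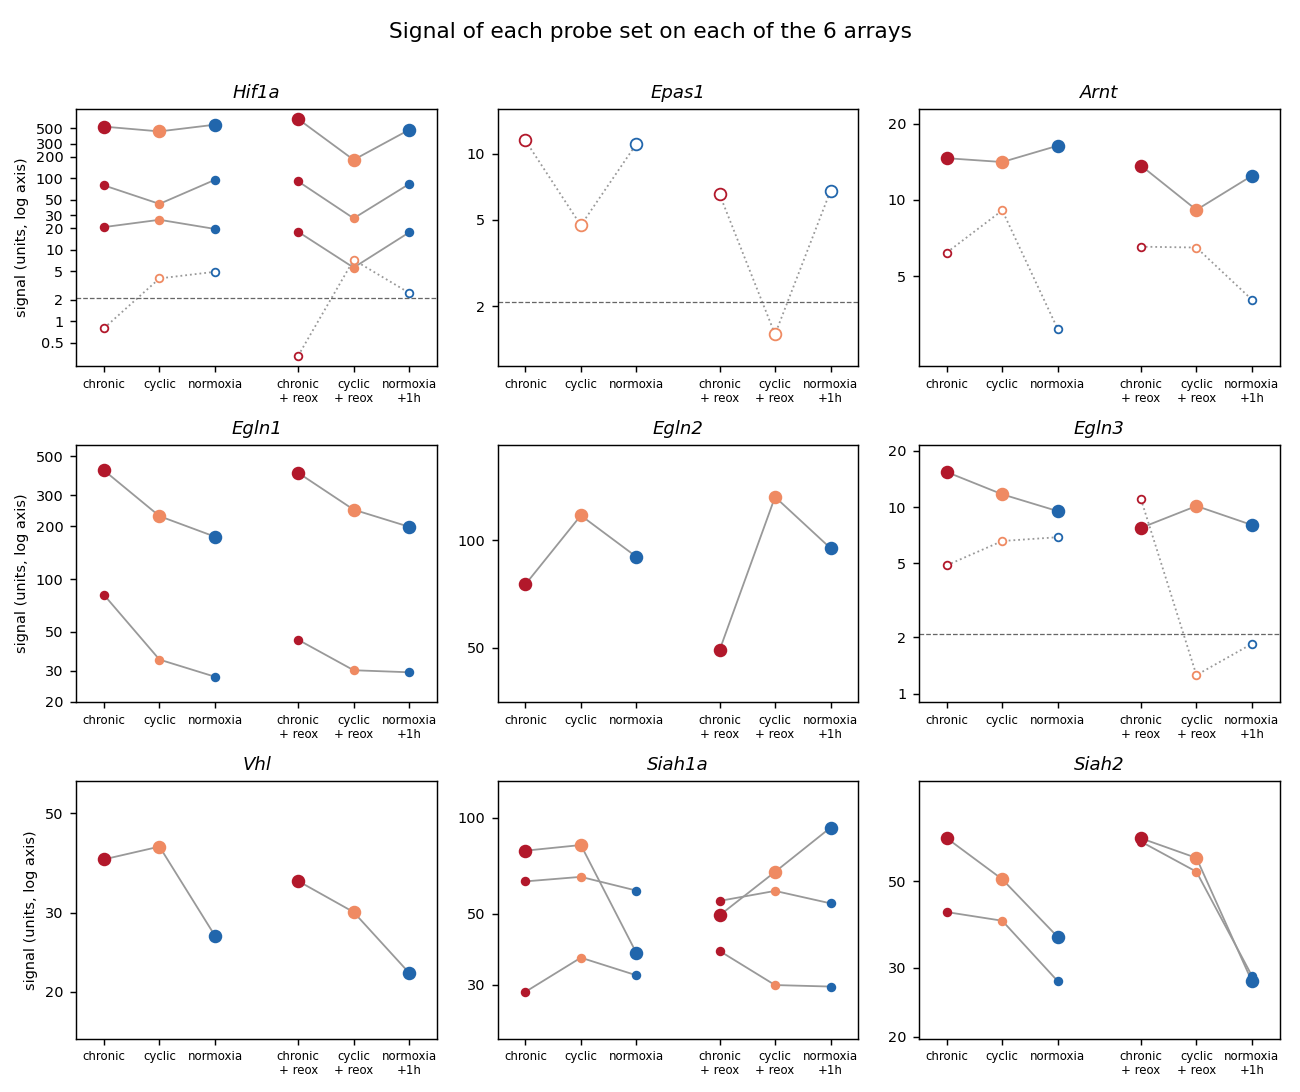
Signal in units (log axis) of every probe set of the 9 named genes on the 6 arrays, with the end of the exposure on the left and the collection 1 h later on the right of each panel. Large symbols are the probe set with the highest mean signal, open symbols are probe sets that did not pass the filter, lines join the arrays of 1 collection and the dashed line is the floor of 2.10 units. Egln1, Vhl and Siah2 lie above both normoxia arrays on all hypoxic arrays, as do 9.11% of all genes. Hif1a is at 180 units after cyclic hypoxia and reoxygenation.

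Hif1a encodes the oxygen-labile alpha subunit of HIF-1. Its brightest probe set gave 524 units after chronic hypoxia and 449 after cyclic hypoxia, against 557 in normoxia. After the further hour it gave 668 units in chronic hypoxia with reoxygenation and 180 in cyclic hypoxia with reoxygenation, against 472 in normoxia +1h. The signal after cyclic hypoxia and reoxygenation was thus well below the other 5, which spanned 449 to 668.

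The log2 differences of Hif1a from normoxia at the end were -0.09 for chronic and -0.31 for cyclic exposure. One hour later they were 0.50 and -1.39, and normoxia +1h differed from normoxia by -0.24. The low value was shared by 3 probe sets, since the second gave 27.3 units against 82.4 in normoxia +1h, and the third 5.58 against 17.3, differences of -1.59 and -1.63. At the end of cyclic hypoxia these probe sets did not go the same way, at -1.12 for the second and 0.43 for the third. The remaining probe set, which did not pass the filter, stayed between 0.327 and 7.17 units, with 2 arrays under the floor. It ran the other way after cyclic hypoxia and reoxygenation, where it was highest (1.53 against normoxia +1h).

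Hif1a shared its low signal after cyclic hypoxia and reoxygenation with many genes of that array, where 10.6% of all genes were 2-fold or more lower than in normoxia +1h. Among the 3573 genes that averaged 100 units or more, 7.61% were that much lower, against 0.028% for normoxia +1h against normoxia, and Hif1a was number 142 from the lowest. The part of that array in the Hif1a value was not tested. In a bulk extract, fewer cells with the transcript and less of it per cell cannot be told apart.

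Arnt, the constant partner of the alpha subunits, had 14.6 units after chronic and 14.1 after cyclic hypoxia, against 16.4 in normoxia. One hour later it had 13.7 and 9.14 units, against 12.5 in normoxia +1h. Its differences from normoxia lay between -0.45 and 0.13, and the normoxia arrays themselves differed by -0.39. A second probe set of Arnt did not pass the filter and ran the other way at the end, with 6.21 and 9.10 units, against 3.10 in normoxia.

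Epas1, the alpha subunit of HIF-2, did not pass the filter. Its single probe set had 11.5 units after chronic and 4.70 after cyclic hypoxia, against 11.1 in normoxia, and 6.53 and 1.49 units 1 h later, against 6.77 in normoxia +1h. Both cyclic arrays were below all the others, the later one under the floor.

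Egln1 (PHD2), the main prolyl hydroxylase acting on HIF-1 alpha in oxygenated cells, had higher signals on all hypoxic arrays than in normoxia. Its brightest probe set gave 416 units after chronic and 228 after cyclic hypoxia, against 174 in normoxia. One hour later it gave 404 and 249 units, against 199 in normoxia +1h. All of the 4 hypoxic arrays lay above the normoxia arrays, as for 9.11% of all genes. Both chronic arrays stood above both cyclic arrays, an order that 25.2% of all genes showed.

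The log2 differences of Egln1 from normoxia at the end were 1.26 for chronic and 0.39 for cyclic exposure, and 1.02 and 0.32 after reoxygenation, beside 0.19 between the normoxia arrays. Among the 3573 genes averaging 100 units or more it was number 31 from the top after chronic hypoxia and number 34 after chronic hypoxia with reoxygenation. In the cyclic regime it was number 587 and number 637. The last hour left the signal within 0.05 of its level in the chronic regime (-0.05) and at 0.12 in the cyclic one.

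The second Egln1 probe set, made from the same sequence record, gave 81.2 units after chronic and 34.7 after cyclic hypoxia, against 27.7 in normoxia. After the further hour it gave 45.1 and 30.2 units, against 29.4 in normoxia +1h. Here the last hour of the chronic regime brought a difference of -0.85, which the brighter probe set did not show. Both probe sets kept the order of chronic over cyclic over normoxia at both collections. At the second, however, cyclic hypoxia with reoxygenation lay only 0.04 above normoxia +1h, less than the 0.08 between its normoxia arrays.

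Egln2 (PHD1), another HIF prolyl hydroxylase, stood on opposite sides of normoxia in the 2 regimes. It had 75.2 units after chronic and 117 after cyclic hypoxia, against 89.8 in normoxia, and 49.2 and 132 units 1 h later, against 94.9 in normoxia +1h. Both cyclic arrays lay above both normoxia arrays, and both chronic arrays below, an order that 2.27% of all genes showed. The differences from normoxia at the end were -0.26 for chronic and 0.38 for cyclic exposure, and -0.95 and 0.48 after reoxygenation. Between the normoxia arrays Egln2 differed by 0.08.

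Cyclic against chronic hypoxia, Egln2 differed by 0.64 at the end and 1.43 after reoxygenation, and Egln1 by -0.87 and -0.70. After reoxygenation Egln2 was number 70 from the top of 7746 genes in that contrast, and number 101 from the lowest for chronic hypoxia with reoxygenation against normoxia +1h. These contrasts share arrays, so the ranks are not separate evidence.

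Egln3 (PHD3), a hydroxylase gene known for strong induction by HIF, was dim in these cells. Its brightest probe set had 15.4 units after chronic and 11.7 after cyclic hypoxia, against 9.50 in normoxia, differences of 0.70 and 0.30. One hour later it had 7.73 and 10.1 units, against 8.01 in normoxia +1h, differences of -0.05 and 0.34. The second probe set did not pass the filter and lay between 1.26 and 11.0 units, with 2 of 6 arrays under the floor.

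Vhl encodes the subunit that recognises hydroxylated HIF alpha. Its probe set had 39.4 units after chronic and 42.1 after cyclic hypoxia, against 26.7 in normoxia, and 35.3 and 30.1 units 1 h later, against 22.0 in normoxia +1h. All 4 hypoxic arrays lay above both normoxia arrays, as for 9.11% of all genes. The differences of 0.57 and 0.66 at the end and 0.68 and 0.45 after reoxygenation were alike in size, and the normoxia arrays differed by -0.27.

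Siah2, a ubiquitin ligase acting on prolyl hydroxylases, was above normoxia in every hypoxic array, and more so after the further hour. Of all genes, 9.11% had all 4 hypoxic arrays above both normoxia arrays. The brightest probe set had 64.4 units after chronic and 50.6 after cyclic hypoxia, against 36.0 in normoxia, differences of 0.84 and 0.49. One hour later it had 64.3 and 57.3 units, against 27.7 in normoxia +1h, differences of 1.21 and 1.05. Over the last hour the signal itself changed by -0.0009 in the chronic and 0.18 in the cyclic regime, and by -0.38 in normoxia. At this probe set the growth of the difference thus lay in the normoxia arrays for the chronic regime, and partly so for the cyclic one.

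The second Siah2 probe set gave 41.7 and 39.6 units at the end of chronic and cyclic hypoxia, against 27.8 in normoxia. Its later values were 63.1 and 52.8 units, against 28.7 in normoxia +1h, and its normoxia arrays differed by 0.05. Its differences were 0.59 and 0.51 at the end and 1.14 and 0.88 after reoxygenation. Both probe sets therefore had a larger difference 1 h after hypoxia than at its end, in both regimes.

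Siah1a, the related ligase, gave no such agreement. Its brightest probe set had 78.8 units after chronic and 82.1 after cyclic hypoxia, against 37.7 in normoxia, and 49.4 and 67.6 units 1 h later, against 93.0 in normoxia +1h. The low normoxia and the high normoxia +1h value, 1.30 apart, gave differences of 1.06 and 1.12 at the end and -0.91 and -0.46 after reoxygenation.

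The other Siah1a probe sets lay between 53.9 and 65.2 units and between 28.5 and 38.3 units, and differed between the normoxia arrays by -0.13 and -0.12. Their differences from normoxia ran from -0.17 to 0.37 over both. A further probe set shared by Siah1a and Siah1b, a closely similar gene, lay between 12.8 and 18.3 units and was not counted for either.

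**Figure D2:**
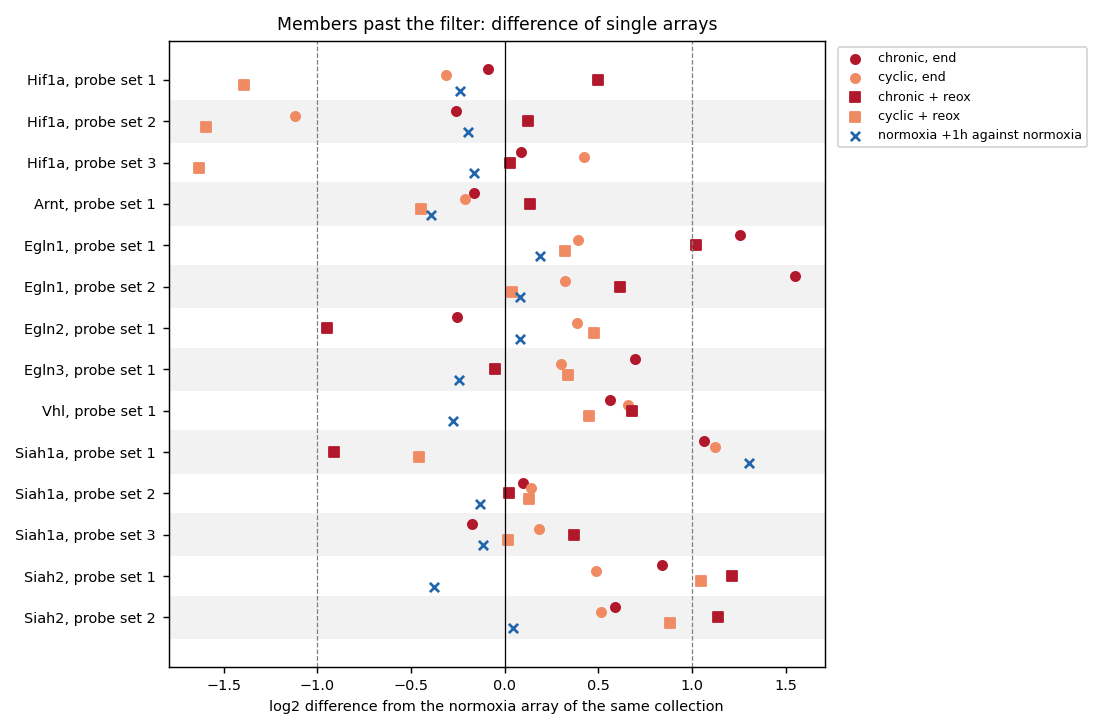
Log2 difference of each hypoxic array from the normoxia array of its collection for the 14 probe sets past the filter, with probe sets numbered from the highest mean signal. Circles are the end of the exposure, squares the collection after 1 h of reoxygenation, crosses the difference of normoxia +1h from normoxia, and dashed lines mark 2-fold. The 3 Hif1a probe sets lie at -1.39, -1.59 and -1.63 after cyclic hypoxia and reoxygenation, and the Siah1a cross at 1.30 belongs to 1 of its 3 probe sets.

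Counted by the brightest probe set, 2 of 8 genes past the filter, Egln1 and Siah1a, were 2-fold or more above normoxia after chronic hypoxia, where 2.53% of all genes were. After cyclic hypoxia this held for Siah1a alone of the 8, against 2.12% of all genes. After reoxygenation it held for Egln1 and Siah2 in the chronic regime (2.98% of all genes) and for Siah2 in the cyclic regime (3.56%). At the end of the exposure 0 of 8 were 2-fold lower in either regime, against 2.36% of all genes for chronic and 5.44% for cyclic hypoxia. One hour later Hif1a was, in the cyclic regime (10.6% of all genes), and 0 of 8 were in the chronic regime (1.12%). The Siah1a counts rest on the normoxia array that its other probe sets did not follow.

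The median difference over the 8 genes was 0.63 after chronic and 0.39 after cyclic hypoxia, and 0.32 and 0.33 after reoxygenation. Over all 7746 genes these medians lay between -0.030 and 0.0044. The medians of the 8 count Siah1a at its brightest probe set, at 1.06 and 1.12 at the end and -0.91 and -0.46 after reoxygenation. Its other probe sets lay between -0.17 and 0.37 on these arrays. Arnt and Egln3 were dim. All 4 hypoxic arrays stood above both normoxia arrays for Egln1, Vhl and Siah2, 3 of 8, against 9.11% of all genes. For 0 of 8 they stood below both, against 9.72% of all genes. Both cyclic arrays lay below both chronic arrays for Hif1a, Egln1 and Siah2, 3 of 8, against 25.2% of all genes, and above them for Egln2, 1 of 8, against 21.6%. These orders were looked for after the values were seen.

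Set against chronic hypoxia at the end, cyclic hypoxia had 0 of 8 genes 2-fold higher and 0 lower at the brightest probe set. Of all genes, 1.23% and 3.76% were. The second Egln1 probe set was 2-fold lower in that contrast (-1.23), against -0.87 at the brightest. After reoxygenation Egln2 was 2-fold higher (1.43), where 2.5% of all genes were, and Hif1a 2-fold lower (-1.90), where 12.6% were.

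Over the last hour, 0 of 8 genes differed 2-fold in the chronic regime, where 2.22% of all genes were higher and 1.45% lower. In the cyclic regime 0 were higher, against 2.9% of all genes, and Hif1a alone of the 8 was lower (-1.32), against 7.47%. In normoxia Siah1a was higher (1.30), against 0.865% of all genes, and 0 were lower, against 1.87%. Egln3 in the chronic regime came close, with a difference of -0.99 between its later and its earlier array.

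**Figure D3:**
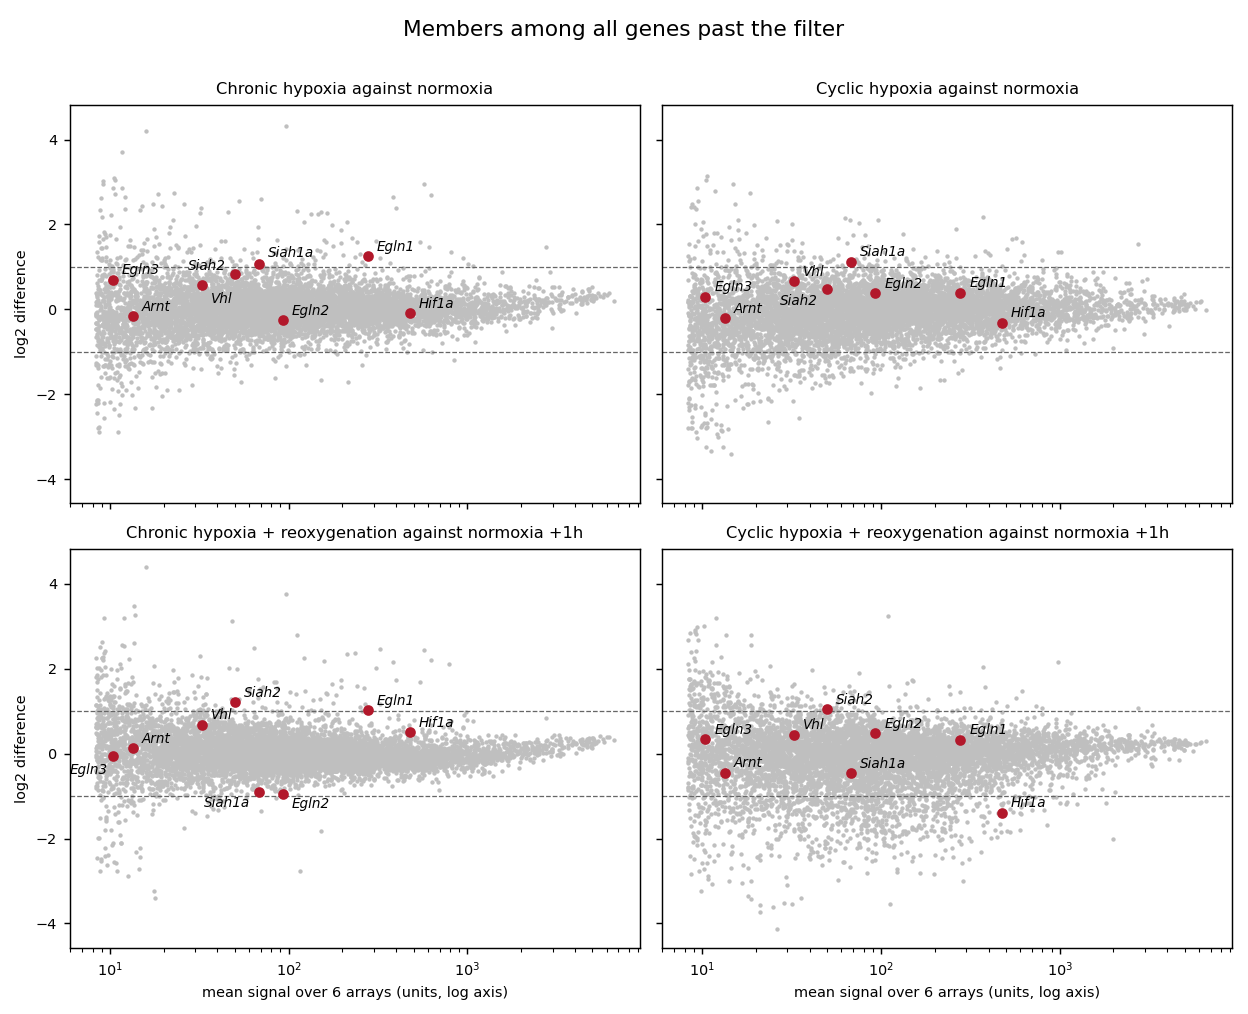
Log2 difference from normoxia against the mean signal over 6 arrays (log axis), in 1 panel per hypoxic array. Grey points are the 7746 genes past the filter, red points the 8 described here, and dashed lines mark 2-fold. Egln1 lies outside most genes of its signal in the chronic panels (1.26 and 1.02), and Hif1a lies at -1.39 in a panel whose grey cloud reaches far below 0.

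The differences were also tested with limma, in an additive fit of regime and collection over all 13556 probe sets past the filter, where the collections stand in for replicates and a value that returned in the last hour counts as noise. For mean hypoxia against normoxia, limma called 0 of the 14 probe sets at an adjusted p under 0.05, where 0.0148% of all probe sets were called higher and 0% lower. At an unadjusted p under 0.05 it had 5 higher and 1 lower, against 4.77% and 4.14% of all probe sets. The 5 were both probe sets of Egln1, both of Siah2 and that of Vhl, and the lower one was the second of Hif1a.

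The fitted mean difference was 0.75 for Egln1 (SE 0.165, limma adjusted p = 0.279), 0.90 for Siah2 (SE 0.226, adjusted p = 0.369) and 0.59 for Vhl (SE 0.242, adjusted p = 0.541). For each, all 4 hypoxic arrays lay above both normoxia arrays, as for 9.11% of all genes. This order was looked for after the values were seen, and the same normoxia arrays enter every comparison.

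For chronic hypoxia alone limma called 0 of the 14 (0.0959% of all probe sets higher), with 4 higher and 0 lower at an unadjusted p under 0.05, against 3.98% and 1.37% of all probe sets. Egln1 came to 1.14 (SE 0.191, adjusted p = 0.145) and Siah2 to 1.03 (SE 0.261, adjusted p = 0.525). Leaving out either cyclic array could not move the Egln1 value of 1.14, which comes from the chronic and normoxia arrays alone. It changed only the error, since the cyclic array that remained was then fitted exactly.

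For cyclic hypoxia alone limma again called 0 of the 14, with 2 higher and 2 lower at an unadjusted p under 0.05, against 5.19% and 9.74% of all probe sets. The higher pair belonged to Siah2 (0.77 at the brightest, adjusted p = 0.237) and the lower pair to Hif1a. The Hif1a values were -0.85 at the brightest probe set (SE 0.343, adjusted p = 0.303) and -1.36 at the second (SE 0.274, adjusted p = 0.123). Egln1 was at 0.36 there (adjusted p = 0.426).

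Leaving out the array at the end of cyclic hypoxia, so that the later one stood alone for its regime and was assumed to vary like the others, gave Hif1a -1.54 with an adjusted p of 0.00371 in limma, where 9.35% of all probe sets were called. Leaving out the later one gave -0.16. At the brightest probe set the fitted Hif1a difference thus rested on the array after reoxygenation.

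Cyclic against chronic hypoxia, limma called 0 of the 14, with 1 higher and 4 lower at an unadjusted p under 0.05, against 3.98% and 10.5% of all probe sets. Hif1a differed by -1.06 (SE 0.343, adjusted p = 0.264), Egln1 by -0.78 (SE 0.191, adjusted p = 0.204) and Egln2 by 1.03 (SE 0.265, adjusted p = 0.211). The Egln1 value held its sign in both collections and at both probe sets. Without the array at the end of cyclic hypoxia Egln2 came to 1.25 (adjusted p = 0.0267) and Hif1a to -1.75 (adjusted p = 0.00219), where 9.83% of all probe sets were called and the cyclic regime was 1 array, assumed to vary like the others. Without the later cyclic array Hif1a came to -0.37 (limma adjusted p = 0.641) and Egln2 to 0.82 (adjusted p = 0.422). Without the later chronic array Hif1a came to -0.49 and Egln2 to 0.67, both at a limma adjusted p of 1.000. Without the earlier chronic array Hif1a came to -1.62 (limma adjusted p = 0.121).

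The difference of the hypoxia effect between the collections was tested in a fit with chronic and cyclic hypoxia as stand-in replicates. In limma 0 of the 14 passed, with 1 higher and 0 lower at an unadjusted p under 0.05, against 0.457% and 1.81% of all probe sets. The 1 was the brightest probe set of Siah1a, at 1.78 (SE 0.508, adjusted p = 1.000), the probe set whose normoxia arrays differed by 1.30. Siah2, larger after reoxygenation in both regimes, came to -0.47 (SE 0.519, adjusted p = 1.000).

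Genes that act with these proteins were taken as a list of 23, of which 17 were named on the array and 16 passed the filter. It held the elongins, cullin and Nedd8 of the Vhl ligase, coactivators, chaperones and further partners. In 3 of the 4 hypoxic arrays 0 of 16 were 2-fold from normoxia in either direction. On those 3 arrays 2.12% to 2.98% of all genes were 2-fold higher and 1.12% to 5.44% lower. The medians of the 16 lay between -0.09 and -0.01 on all 4 arrays. After cyclic hypoxia and reoxygenation 1 of 16 was 2-fold lower, where 10.6% of all genes were. It was Hsp90aa1, a chaperone that holds HIF alpha, with 558 units against 1237 in normoxia +1h (-1.15). Its other probe sets gave -1.87 and -1.92 in that contrast. At the end of hypoxia they did not go the same way, with -0.76 at the brightest probe set and 0.35 and 0.41 at the others after chronic hypoxia.

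Cited2, which competes with HIF alpha for its coactivators, was picked out of the list after its values were seen. It had 1119 units after chronic and 1223 after cyclic hypoxia, against 784 in normoxia, and 1011 and 1090 units 1 h later, against 754 in normoxia +1h. The differences of 0.51 and 0.64 at the end and 0.42 and 0.53 after reoxygenation were all under 2-fold. A dimmer probe set gave 0.11, 0.26, 0.52 and 0.43.

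Enzymes that make or use 2-oxoglutarate, succinate or fumarate, which serve or inhibit the hydroxylases, had 20 of 21 genes past the filter. After chronic hypoxia 0 of 20 were 2-fold from normoxia, at either collection. Of all genes, 2.53% were 2-fold higher and 2.36% lower at the end, and 2.98% and 1.12% after reoxygenation. A count of 0 of 20 lies near those shares. At the end of cyclic hypoxia 2.12% of all genes were 2-fold higher. In the cyclic regime Got1, a cytosolic aspartate aminotransferase, had 635 units at the end, against 311 in normoxia (1.03), and 671 units after reoxygenation, against 343 in normoxia +1h (0.97). After cyclic hypoxia and reoxygenation Dld, a dehydrogenase subunit, had 46.8 units against 110 in normoxia +1h (-1.24), and Sucla2, a succinyl-CoA ligase subunit, 121 units against 248 (-1.04). These 2 lower values fall on the array where 10.6% of all genes were that low.

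A list of known HIF targets, such as genes of glycolysis, held none of the genes described here. Of 20 listed, 18 were named and 17 passed. After chronic hypoxia 12 of 17 were 2-fold higher (median 1.60) and after cyclic hypoxia 6 (median 0.73). Of all genes, 2.53% and 2.12% were. After reoxygenation the counts were 12 in the chronic (median 1.69) and 3 in the cyclic regime (median 0.44), against 2.98% and 3.56% of all genes. On any of the 4 arrays 0 were 2-fold lower, where 1.12% to 10.6% of all genes were. Egln1, itself a HIF target, had 1.26, 0.39, 1.02 and 0.32 in the same order, below the list's median each time. The lists were not tested against each other.

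**Figure D4:**
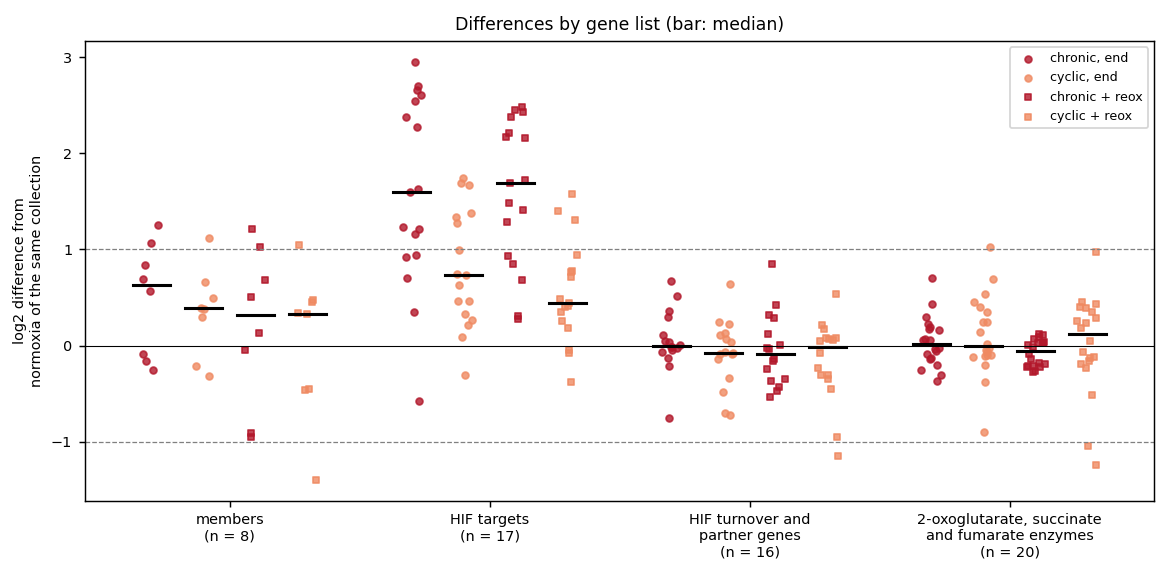
Log2 difference from normoxia of the same collection for the 8 genes described, 17 HIF targets, 16 partner genes of HIF turnover and 20 enzymes of 2-oxoglutarate, succinate and fumarate. Each point is a gene at its brightest probe set, bars are medians, circles the end of hypoxia, squares the collection after reoxygenation, and dashed lines mark 2-fold. The HIF target medians are 1.60, 0.73, 1.69 and 0.44, and those of the partner genes stay between -0.09 and -0.01.

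For each gene past the filter whose brightest probe set spanned at least 2-fold over the arrays, the 3 genes with the most similar pattern were found among those averaging 100 units or more. Likeness was the root mean square difference of log2 signals over the 6 arrays, after centring each gene on its mean. For Hif1a they were Hipk3 (0.084), Otud4 (0.086) and Syncrip (0.090). Hipk3 had 66.5 units after cyclic hypoxia and reoxygenation, against 184 in normoxia +1h. Genes were picked for likeness over all 6 arrays, so a low signal on this array came with the choice and is no separate result.

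Nearest to Egln1 were Fam162a (0.112), Atf4 (0.171) and Ccnl1 (0.174). Fam162a had 1295 units after chronic and 687 after cyclic hypoxia, against 510 in normoxia, and 1002 and 778 units 1 h later, against 587 in normoxia +1h. Its order of chronic over cyclic over normoxia at both collections came with being picked for likeness to Egln1.

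Nearest to Siah2 were Pfkl (0.168), Nckap5l (0.177) and Alkbh5 (0.192). Pfkl, the liver-type phosphofructokinase subunit, had 380 and 216 units at the end of chronic and cyclic hypoxia, against 153 in normoxia. Its later values were 314 and 295 units, against 147 in normoxia +1h. Its higher signals in hypoxia came with being picked for likeness to Siah2 and are no separate result.

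Nearest to Egln2 were Maf1 (0.148), Txnl4a (0.159) and Wsb2 (0.183), and Maf1 had 370 units after chronic and 530 after cyclic hypoxia, against 403 in normoxia. One hour later Maf1 had 280 and 556 units, against 407 in normoxia +1h. Its order came with being picked for likeness to Egln2 and is no separate result. For Siah1a the nearest genes, Tfpt, Tsc22d4 and Dkk3, were further away, at 0.252 to 0.258.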

How the data were processed

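Per the labels, 5 µg of total RNA from each of 6 cultures was turned into biotinylated cRNA for Affymetrix arrays. The deposited values are signal intensities on a linear scale for 22690 probe sets. The submitters' processing notes name GCOS, and its version and algorithm are not given in the sources used here. The mean of each column without 2% at each end was 100 units on every array, and the authors' scaling was left as it was. Arrays hold no counts, so the number of arrays and the signal over background limit precision.

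Values were floored at the 20th percentile (2.10 units) and log2 was taken. Control probe sets (64) and those with a mean under the 40th percentile (8.33 units) were left out, which left 13556. Probe sets naming 1 gene (20393), several (691) or none (1606) were told apart by GEO's platform annotation, and 20364 were given current symbols through Entrez identifiers in RefSeq's gene table. Each gene was taken at its brightest probe set.

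Two-sided tests were run in limma 3.58.1 (R 4.3.3), with the prior variance following signal and Benjamini-Hochberg adjustment across the 13556 probe sets. The script was tested on simulated data. A call without a test is a difference of at least 2-fold between single arrays. Nothing says how independent the cultures were. The genes and lists were chosen with earlier results of these data known. Values were given for members, for genes nearest in pattern, and for partner or enzyme genes 2-fold from normoxia on a hypoxic array. The latter were taken past the filter, at their brightest probe set. HIF targets were given as counts and medians, and cell type markers as summed signals and counts. Cited2 falls outside these rules and was chosen after its values were seen. Alternatives changed the normalization, floor, filter, trend, probe set rule and arrays.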

Additional observations from a re-analysis of the deposited data

How the results depend on the processing

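The arrays were single, so differences between them had no error, and dim genes (Arnt, Egln3, Epas1) were limited by background. No paired analysis was possible because the labels give no replicate numbers to pair by beyond 1 array per group, and the collection was already a term of the additive fit. Leaving out each array in turn gave 0 to 3 called probe sets of the set for mean hypoxia, 0 to 1 for chronic hypoxia, 0 to 2 for cyclic hypoxia, 0 to 3 for cyclic against chronic hypoxia and 0 to 1 for the difference between collections, where the fits to all arrays gave 0. The last could not be fitted without either normoxia array. The calls for mean hypoxia came without the array at the end of cyclic hypoxia, and were Egln1, Siah2 and the second probe set of Hif1a, where 3.82% of all probe sets were called. Those of the difference between collections were the brightest probe sets of Hif1a and Siah1a. Hif1a came to 1.19 without the reoxygenated chronic array, and Siah1a to 2.00 without that after cyclic hypoxia and reoxygenation. In each of these fits the later hypoxia group was 1 array, fitted exactly and assumed to vary like the others. For Hif1a that array was the one after cyclic hypoxia and reoxygenation, so the value also holds the difference between the regimes. Quantile normalization, median centring, the 10th percentile as floor, no filter and no trend each left the 5 counts at 0. Of 12 fitted values picked from those of the named genes, 0 turned their sign under any setting. Most settings could not have turned one. The filter and trend do not enter a fitted value, and these probe sets lay above the floor on all arrays. Only the normalizations and some of the left-out arrays could move these values. Over all settings the adjusted p of Egln1 in chronic hypoxia ran from 0.0199 to 1.000 and that of Hif1a in cyclic hypoxia from 0.00371 to 0.833.

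Averaging a gene's probe sets gave 1 gene 2-fold higher after chronic hypoxia, 0 after cyclic hypoxia, 1 after chronic and 0 after cyclic hypoxia with reoxygenation, 0 in the last hour of normoxia, and 1 lower for cyclic against chronic hypoxia at the end. Without the filter, which lets Epas1 in, the genes 2-fold lower were 1 after cyclic hypoxia, 2 after cyclic hypoxia with reoxygenation, 1 and 2 for cyclic against chronic hypoxia at the end and after reoxygenation, and 2 in the last hour of the cyclic regime. Quantile normalization gave 1 lower for chronic hypoxia with reoxygenation and 1 lower in the last hour of the chronic regime.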
